A study of Drosophila melanogaster with 16 samples.

Results

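The glycerophosphate shuttle and the other enzymes that set the cytosolic NADH balance were examined as 7 genes of the 9863 in the expression table: Gpdh, Gpo-1, ImpL3, Mdh1, Got1, Got2 and Gyk. They were chosen by name for their reactions, with earlier results of these data known. Of these, 6 were found by symbol, and Gyk was found under its present symbol Gk1 through the RefSeq table of gene synonyms. All 7 passed the filter on low values. Gpdh, Gpo-1 and ImpL3 are the older symbols of Gpdh1, Gpo1 and Ldh.

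RNA was sequenced from whole Drosophila melanogaster larvae in 16 libraries that form 4 groups of 4: larvae labelled cwo mutant on high sugar, control larvae on high sugar, larvae labelled cwo mutant on low sugar, and control larvae on low sugar. The mutant stock carries the allele cwoB9 of clockwork orange (cwo), a transcriptional repressor of the circadian clock, and the control stock is labelled only as control. Larvae of both genotypes spent 24 h at 25 °C on the low-sugar diet of 10% yeast. Early second-instar larvae were then kept for 8 h on the same diet or on 10% yeast with 15% sucrose, both with a blue food dye. Feeding larvae were pooled for each library. Whether replicates came from separate cultures is not labelled. The p-values therefore rest on the spread among these 4 libraries a group, part of which may be technical.

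Glycolysis reduces cytosolic NAD+ to NADH, which has to be oxidised again for glycolysis to go on. In the glycerophosphate shuttle, Gpdh uses NADH to turn dihydroxyacetone phosphate into glycerol 3-phosphate, and the mitochondrial oxidase Gpo-1 passes the electrons of glycerol 3-phosphate on to ubiquinone. Glycerol kinase makes glycerol 3-phosphate from glycerol, lactate dehydrogenase (ImpL3) oxidises NADH with pyruvate, and Mdh1 with the aspartate aminotransferases Got1 and Got2 belongs to the malate-aspartate shuttle. Glycerol 3-phosphate is also the backbone of triglycerides, and Drosophila larvae are known for high lactate dehydrogenase and Gpdh activity during growth.

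The targeted gene did not show a loss of RNA. cwo stood at 266.6 to 291 CPM in libraries labelled mutant on high sugar, against 64.0 to 72.8 CPM in control libraries on high sugar, and at 139 to 199 CPM in libraries labelled mutant on low sugar, against 54.9 to 58.3 CPM in control libraries on low sugar. A gene-level value cannot show the allele, so every genotype direction here rests on the label. The eye-colour gene w stood at 316 to 553 CPM in the libraries labelled mutant and at 0.159 to 0.869 CPM in the control libraries. Where the w sequence lies cannot be read from RNA values, and the cwo allele and any other difference between the stocks cannot be told apart. The libraries held 44.9 to 54.2 M reads in listed genes (M for mega), and the lowest read count behind any value of the 7 genes was 3478 (Gk1), a relative counting error of at most 1.70%. These read numbers assume that the smallest step between the values of a library is 1 read.

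Values are given in the CPM of the deposited table, and differences come from limma on log2(CPM + 0.5) with a standard error and a Benjamini-Hochberg adjusted p over 9837 genes, called at 0.05. On high against low sugar, 4 of the 7 genes rose and 2 fell in libraries labelled mutant, where 52.1% of all genes tested were called, 22.5% higher and 29.5% lower. In control libraries 4 rose and 1 fell, where 67.9% of all genes were called, 33.1% higher and 34.8% lower. Between genotypes, 4 genes were higher and 1 was lower in libraries labelled mutant than in control libraries on high sugar, where 40% of all genes were called, 21.1% higher and 18.9% lower. On low sugar 3 were higher and 2 lower, where 43.8% of all genes were called, 23.1% higher and 20.8% lower. The diet response differed between the genotypes for 4 of the 7 genes, 1 higher and 3 lower, while 16.9% of all genes were called in that interaction, 7.92% higher and 8.95% lower. These shares rest on 779 and 880 genes, which became 529 to 1201 and 654 to 1246 with 1 library left out (1201 and 1246 without library 1 labelled mutant on low sugar) and 277 and 493 without the library of highest Tweedle score (cuticle genes, described at the end) in each group. The libraries of the groups compared did not overlap for 6 of the 7 genes for diet in libraries labelled mutant (45.2% of all genes), 5 for diet in control (64.2%), 4 for genotype on high sugar (40.1%) and 5 for genotype on low sugar (37.3%). These comparisons share groups of libraries and are not independent of each other. The 7 genes were chosen with earlier results of these data known, so counts set against all genes are not independent evidence. The median log2 difference of the 7 genes was 0.26 for diet in libraries labelled mutant, 0.29 for diet in control, 0.16 for genotype on high sugar, 0.08 for genotype on low sugar and -0.15 for the interaction, and the median of all genes lay within 0.01 of 0 in each.

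**Figure D1:**
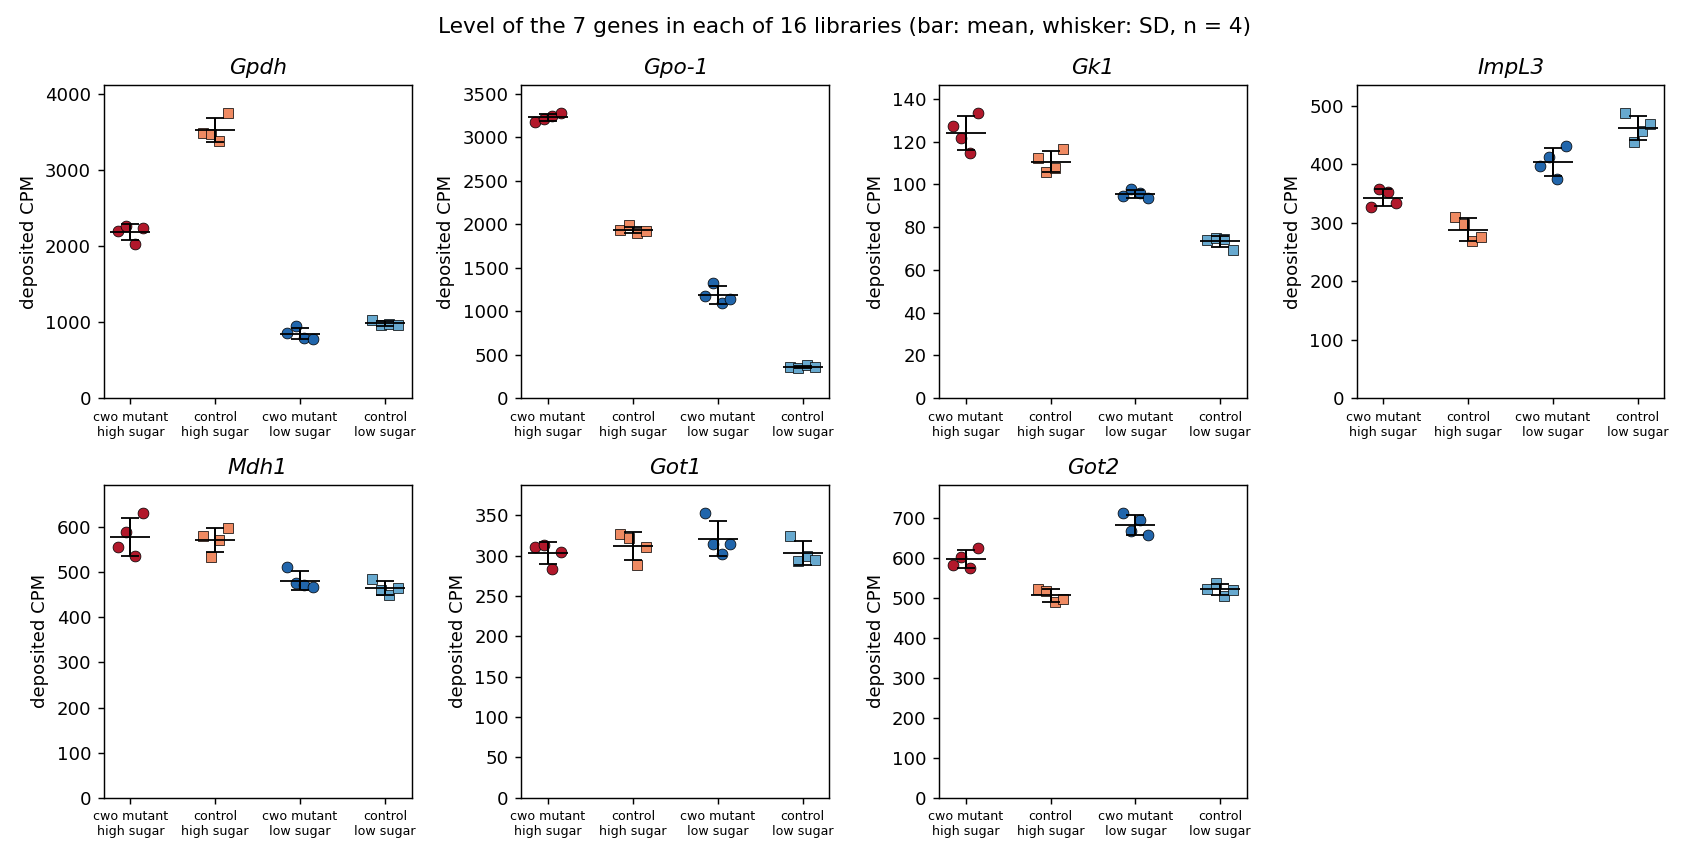
Deposited CPM (vertical axis, from 0) of each gene in every library, with libraries labelled cwo mutant and control libraries on high and on low sugar side by side along the horizontal axis. Points are libraries, the bar is the mean and the whisker the SD of 4. Gpdh is highest in control libraries on high sugar, Gpo-1 in libraries labelled mutant on high sugar, and Got1 lies between 284 and 353 CPM in all 16 libraries.

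Gpdh, the cytosolic NADH-dependent glycerol-3-phosphate dehydrogenase, is FBgn0001128 on chromosome 2L:5943643-5948968, plus strand. It had 2193, 2263, 2026 and 2229.7 CPM in libraries labelled mutant on high sugar and 3489, 3475, 3378 and 3741 CPM in control libraries on high sugar. On low sugar it had 860.3, 940.9, 791 and 782 CPM in libraries labelled mutant and 1021, 966, 975 and 959 CPM in control libraries. The 4 groups did not overlap, with control libraries on high sugar at the top and libraries labelled mutant on low sugar at the bottom. Gpdh rose on high sugar by a log2 difference of 1.37 ± 0.06 (SE) in libraries labelled mutant (adjusted p = 9.16e-11, limma) and of 1.84 ± 0.06 in control libraries (adjusted p = 1.43e-12), folds of 2.58 and 3.59 between the group means. It was lower in libraries labelled mutant on both diets, at 0.619 of the control mean on high sugar (log2 -0.69 ± 0.06, adjusted p = 1.45e-07) and at 0.861 of it on low sugar (log2 -0.22 ± 0.06, adjusted p = 0.00554). The diet response was smaller in libraries labelled mutant on the log2 scale (interaction -0.47 ± 0.08, adjusted p = 0.00142). On the linear scale the gain with sugar was 1334 ± 64.2 CPM in libraries labelled mutant and 2541 ± 78.9 CPM in control libraries (SE, n = 4 in each group).

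Gpo-1, the mitochondrial glycerol-3-phosphate oxidase, is FBgn0022160 on chromosome 2R:15857752-15862755, minus strand. It had 3179, 3217, 3251.5 and 3276 CPM in libraries labelled mutant on high sugar and 1929.7, 1989, 1901 and 1925 CPM in control libraries on high sugar. On low sugar it had 1174, 1329, 1094 and 1139 CPM in libraries labelled mutant and 363, 347, 376 and 361 CPM in control libraries. All 4 groups stood apart, with both groups labelled mutant above their controls, the reverse of Gpdh. Sugar raised Gpo-1 by 1.45 ± 0.05 on the log2 scale in libraries labelled mutant (adjusted p = 1.05e-11) and by 2.42 ± 0.05 in control libraries (adjusted p = 2.46e-14). It was 1.67 times the control mean in libraries labelled mutant on high sugar (log2 0.74 ± 0.05, adjusted p = 1.38e-08) and 3.27 times on low sugar (log2 1.71 ± 0.05, adjusted p = 5.69e-13).

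Its log2 diet response was thus smaller in libraries labelled mutant (interaction -0.97 ± 0.07, adjusted p = 1.44e-06), which ranks 4 of the 9837 genes by p-value. The linear gain was the other way round, at 2047 ± 55.3 CPM in libraries labelled mutant and 1575 ± 19.7 CPM in control libraries (SE, n = 4 in each group). Whether the response of Gpo-1 is the smaller or the larger in libraries labelled mutant therefore depends on the scale, whereas for Gpdh it was the smaller on both. Libraries labelled mutant on low sugar had 0.611 of the Gpo-1 level of control libraries on high sugar.

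The ratio of Gpo-1 to Gpdh within a library is not changed by a single scaling factor for that library. It averaged 1.49 ± 0.08 in libraries labelled mutant on high sugar, 0.551 ± 0.025 in control libraries on high sugar, 1.40 ± 0.04 in libraries labelled mutant on low sugar and 0.369 ± 0.014 in control libraries on low sugar (SD, n = 4 each). Gpo-1 was above Gpdh in every library labelled mutant and below it in every control library. The log2 ratio was higher in libraries labelled mutant by 1.43 on high sugar and by 1.93 on low sugar, without overlap (exact permutation test, two-sided, p = 0.0286, the smallest that 4 against 4 libraries allow, and 0.0408 after adjustment over the 20 ratio tests). As Gpo-1 was higher and Gpdh lower in these libraries without overlap, this separation follows from both genes and is not further evidence. Across diets it rose by 0.58 in control libraries (exact permutation p = 0.0286, adjusted 0.0408). In libraries labelled mutant it differed by 0.08 and the diets overlapped (exact permutation p = 0.0857, adjusted 0.107).

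**Figure D2:**
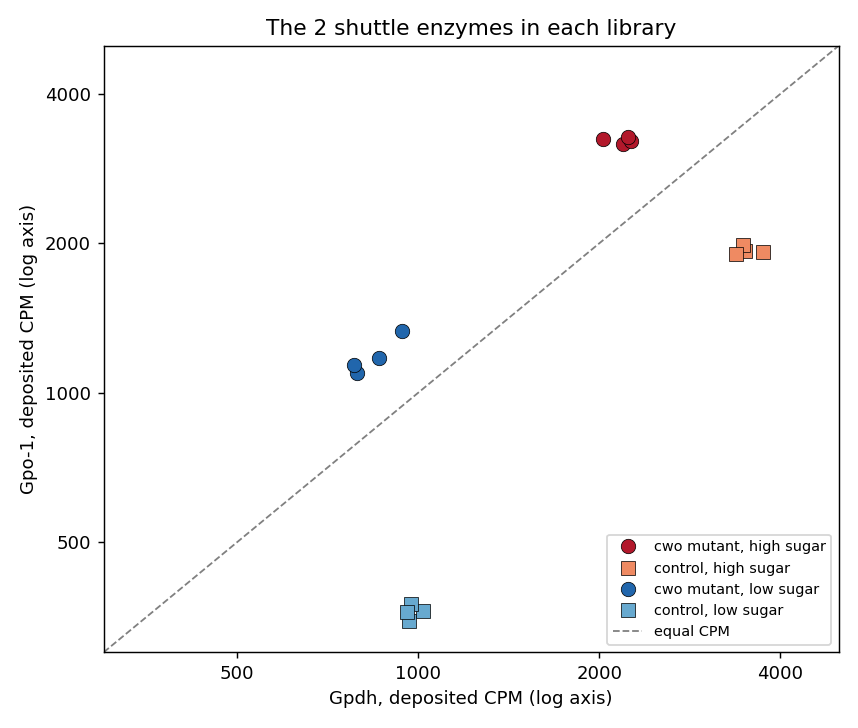
Gpo-1 against Gpdh in each of the 16 libraries, both in deposited CPM on log axes, with the dashed line at equal CPM. Circles are libraries labelled cwo mutant and squares control libraries. Every library labelled mutant lies above the line and every control library below it.

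The cell type markers moved with genotype as well. The midgut markers were alphaTry, betaTry, Mal-A1, Jon65Ai, Npc2f, LManII and PGRP-SC2. The summed level of the 7 midgut markers was 2739 to 3407 CPM in libraries labelled mutant on high sugar, 1446 to 1978 CPM in control libraries on high sugar, 1691 to 2061 CPM in libraries labelled mutant on low sugar and 608 to 733 CPM in control libraries on low sugar. It was thus higher in libraries labelled mutant on each diet, as Gpo-1 was. Between genotypes, 4 of these 7 markers were higher in libraries labelled mutant on high sugar and 6 on low sugar, with none lower. With sugar, 5 rose and 2 fell in libraries labelled mutant, and 5 rose and 1 fell in control libraries. The summed level of the 8 larval muscle markers was 43723 to 49180 CPM in libraries labelled mutant on high sugar, 52388 to 57611 CPM in control libraries on high sugar, 38033 to 47608 CPM in libraries labelled mutant on low sugar and 46572 to 49527 CPM in control libraries on low sugar. Of these, 7 were lower in libraries labelled mutant on high sugar and 5 on low sugar, as Gpdh was. With sugar, none was called in libraries labelled mutant and 6 rose in control libraries, but the interaction was called for only 1 of the 8 (lower), so a difference in response was not shown for the other 7. Of 8 fat body markers searched for by symbol, 3 were in the table. On high sugar they summed to 429 to 556 CPM in libraries labelled mutant and 394 to 437 CPM in control libraries. On low sugar the sums were 434 to 658 CPM and 513 to 676 CPM. Between genotypes, 1 of the 3 was lower in libraries labelled mutant on high sugar and none was called on low sugar. The 6 neuronal markers summed to 204 to 319 CPM, with 1 higher on high sugar and 4 on low sugar. With sugar, 2 of the 3 fat body markers fell in each genotype, and of the neuronal markers 4 rose in libraries labelled mutant and 5 in control libraries. In the interaction 3 of the 6 neuronal markers were lower and none higher. Of the 7 midgut markers 1 was higher and 3 were lower there, and none of the 3 fat body markers was called. The part of these shifts in the differences of the 7 genes was not tested. In whole larvae, fewer cells of a type and less RNA per cell cannot be told apart.

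Gk1, the glycerol kinase named Gyk in the gene list, is FBgn0025592 on chromosome 3L:202098-205844, minus strand. It had 127, 122, 114.5 and 133 CPM in libraries labelled mutant on high sugar and 112, 106, 108 and 117 CPM in control libraries on high sugar, which overlap. On low sugar it had 94.6, 97.7, 95.7 and 93.5 CPM in libraries labelled mutant, all above the 74.2, 75.0, 74.6 and 69.4 CPM in control libraries. Gk1 rose on high sugar in libraries labelled mutant (log2 0.38 ± 0.05, adjusted p = 9.46e-06) and in control libraries (log2 0.59 ± 0.05, adjusted p = 3.45e-08), without overlap between diets. It was 1.12 times the control mean in libraries labelled mutant on high sugar (log2 0.16 ± 0.05, adjusted p = 0.0116) and 1.30 times on low sugar (log2 0.38 ± 0.05, adjusted p = 1.27e-05). The difference between the diet responses was -0.21 ± 0.07 (adjusted p = 0.0412). It was not stable: the call was lost in 16 of 26 alternatives, 13 of which left out a single library, with adjusted p between 0.0207 and 0.181.

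ImpL3, the larval lactate dehydrogenase, is FBgn0001258 on chromosome 3L:6259105-6262694, minus strand. It had 327, 358, 353 and 335 CPM in libraries labelled mutant on high sugar and 309.9, 298, 268 and 276 CPM in control libraries on high sugar. On low sugar it had 398, 413, 375 and 432 CPM in libraries labelled mutant and 487, 437, 457 and 469 CPM in control libraries. Both high-sugar groups lay below both low-sugar groups, and the 2 groups labelled mutant lay between the 2 control groups, without overlap. ImpL3 fell on high sugar in libraries labelled mutant (log2 -0.24 ± 0.06, adjusted p = 0.00221) and in control libraries (log2 -0.68 ± 0.06, adjusted p = 3.90e-08). It was higher in libraries labelled mutant on high sugar (log2 0.25 ± 0.06, adjusted p = 0.00188) and lower in them on low sugar (log2 -0.19 ± 0.06, adjusted p = 0.0104). The fall was therefore smaller in libraries labelled mutant (interaction 0.45 ± 0.08, adjusted p = 0.00180).

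ImpL3 and Gpdh both oxidise NADH in the cytosol, and they moved in opposite directions with sugar. ImpL3 stood at 0.158 ± 0.012 of the Gpdh level in libraries labelled mutant on high sugar, 0.0820 ± 0.0067 in control libraries on high sugar, 0.482 ± 0.049 in libraries labelled mutant on low sugar and 0.472 ± 0.015 in control libraries on low sugar (SD, n = 4 each). The log2 ratio was lower on high than on low sugar in libraries labelled mutant (difference -1.61) and in control libraries (difference -2.53), without overlap (exact permutation p = 0.0286 for each, adjusted 0.0408). It was higher in libraries labelled mutant by 0.95 on high sugar, again without overlap (exact permutation p = 0.0286, adjusted 0.0408). In these comparisons both genes moved in opposite directions without overlap, so the separation of their ratio follows from them and is not further evidence. On low sugar the genotypes differed by 0.03 and overlapped (exact permutation p = 0.857, adjusted 0.857). The log2 ratio of Gk1 to Gpdh was lower on high sugar in libraries labelled mutant (difference -0.99) and in control libraries (difference -1.25), and higher in libraries labelled mutant by 0.86 on high and by 0.60 on low sugar, each without overlap at an exact permutation p of 0.0286 (adjusted 0.0408). For genotype on low sugar this too follows from the single genes, with Gk1 higher and Gpdh lower without overlap.

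Mdh1, the cytosolic malate dehydrogenase, is FBgn0262782 on chromosome 2L:10393774-10396332, minus strand. It had 555, 589, 536 and 631 CPM in libraries labelled mutant on high sugar and 579.5, 535, 572 and 598 CPM in control libraries on high sugar. On low sugar it had 512, 475, 472 and 467 CPM in libraries labelled mutant and 486, 462, 449.9 and 465 CPM in control libraries. The diets stood apart and the genotypes overlapped on each diet. Mdh1 rose on high sugar in libraries labelled mutant (log2 0.26 ± 0.05, adjusted p = 6.35e-04) and in control libraries (log2 0.29 ± 0.05, adjusted p = 1.39e-04). For genotype the log2 difference was 0.02 on high sugar (95% interval -0.10 to 0.13, adjusted p = 0.843, limma) and 0.05 on low sugar (-0.06 to 0.16, adjusted p = 0.487), and the interaction was -0.03 (-0.19 to 0.13, adjusted p = 0.807).

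Got2, the mitochondrial aspartate aminotransferase, is FBgn0001125 on chromosome 2L:1984512-1987758, minus strand. It had 584, 603, 576 and 626 CPM in libraries labelled mutant on high sugar and 522, 518, 489 and 499 CPM in control libraries on high sugar. On low sugar it had 713, 667, 696 and 657 CPM in libraries labelled mutant and 522, 538, 505 and 521 CPM in control libraries. Both groups labelled mutant lay above both control groups. The genotype difference was 0.24 ± 0.04 on high sugar (adjusted p = 1.79e-04) and 0.39 ± 0.04 on low sugar (adjusted p = 1.26e-06) on the log2 scale. Got2 fell on high sugar in libraries labelled mutant (log2 -0.19 ± 0.04, adjusted p = 6.53e-04). In control libraries the diets overlapped (log2 -0.04 ± 0.04, 95% interval -0.13 to 0.04, adjusted p = 0.354), and the difference between the responses was -0.15 ± 0.06 (adjusted p = 0.0718), so a difference in response between genotypes was not called.

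Got1, the cytosolic aspartate aminotransferase, is FBgn0001124 on chromosome 2R:16138352-16141928, plus strand. It averaged 303 ± 13.5 CPM in libraries labelled mutant on high sugar, 312 ± 16.9 CPM in control libraries on high sugar, 321 ± 21.9 CPM in libraries labelled mutant on low sugar and 303 ± 14.6 CPM in control libraries on low sugar (SD, n = 4 each). It passed in none of the 5 comparisons by limma, where the unadjusted p was also above 0.05. The log2 difference was -0.08 for diet in libraries labelled mutant (95% interval -0.20 to 0.04), 0.04 for diet in control (-0.08 to 0.16), -0.04 for genotype on high sugar (-0.16 to 0.08) and 0.08 for genotype on low sugar (-0.04 to 0.20), and the interaction was -0.12 (-0.29 to 0.04). The intervals thus leave room for a fall with sugar of up to 0.20 in libraries labelled mutant and a rise of up to 0.16 in control libraries. For genotype they leave room for levels in libraries labelled mutant up to 0.16 lower on high sugar and 0.20 higher on low sugar.

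Within a library, the log2 ratio of Mdh1 to Got1 was higher on high sugar by 0.34 in libraries labelled mutant and by 0.25 in control libraries, without overlap (exact permutation p = 0.0286, adjusted 0.0408 for each). Between genotypes it differed by 0.06 on high sugar and by -0.04 on low sugar, with overlap (exact permutation p = 0.457 and 0.229). The log2 ratio of cytosolic Got1 to mitochondrial Got2 was lower in libraries labelled mutant on high sugar (difference -0.28) and on low sugar (difference -0.31), without overlap (exact permutation p = 0.0286, adjusted 0.0408 for each). Across diets it differed by 0.11 in libraries labelled mutant and by 0.08 in control libraries, with overlap (exact permutation p = 0.0857 and 0.114). The adjusted value of 0.0408, shared by all ratio tests at the smallest p, rests in part on those that follow from the single genes. The adjustment was not repeated without them, so the adjusted calls of the other ratios are not secure.

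**Figure D3:**
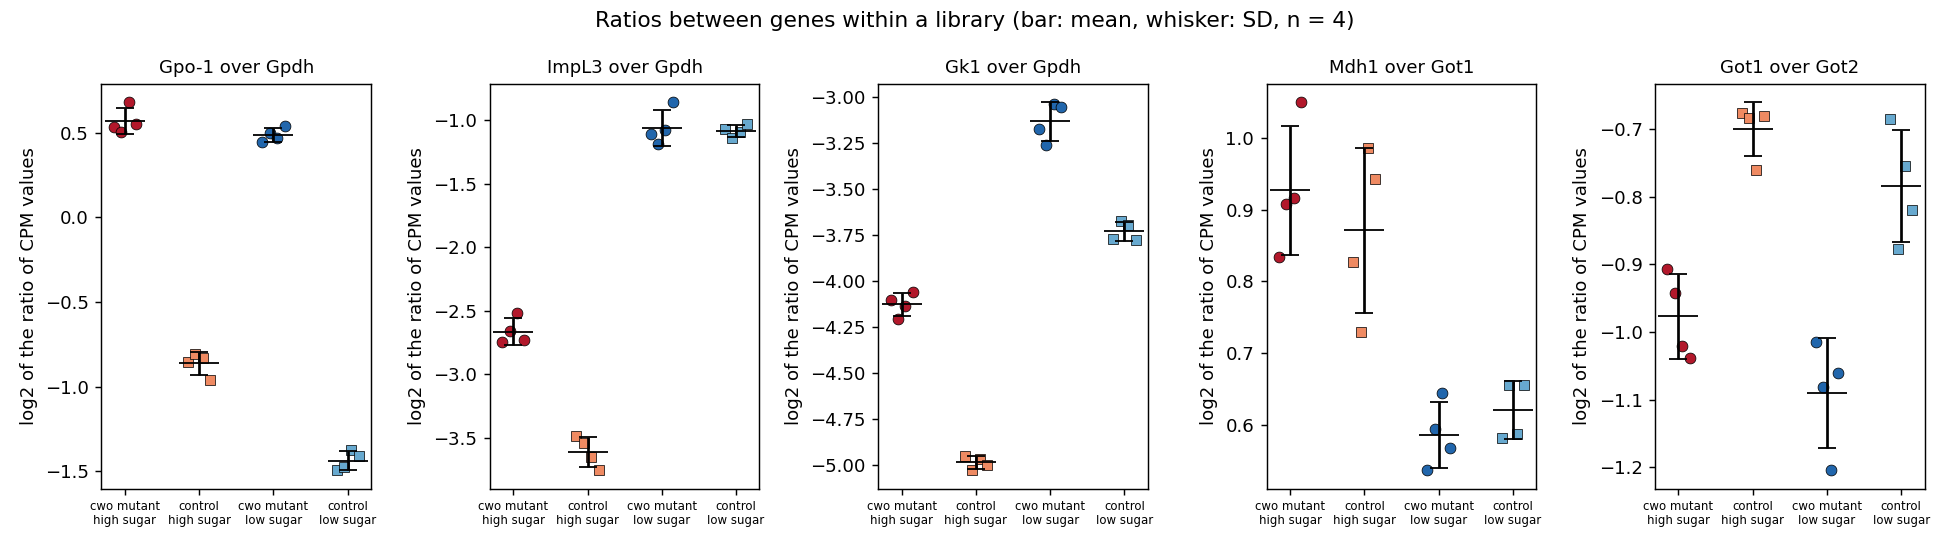
The 5 ratios between genes within a library, as log2 of the ratio of CPM values (vertical axes, which do not start at 0), for the 4 groups along the horizontal axis. Points are libraries, the bar is the mean and the whisker the SD of 4. Gpo-1 over Gpdh separates the genotypes on both diets, ImpL3 over Gpdh separates them on high sugar only, and Mdh1 over Got1 separates the diets.

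**Figure D4:**
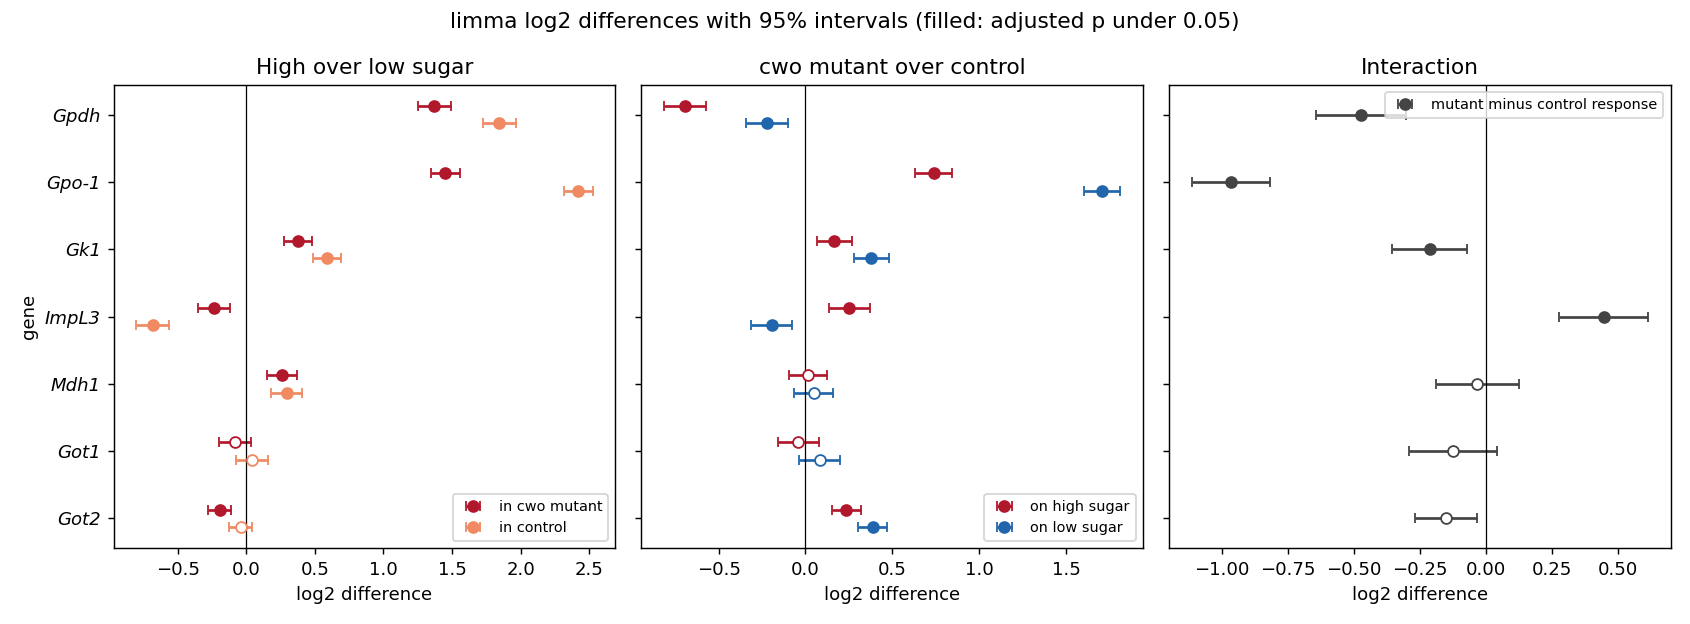
Log2 differences of the 7 genes (horizontal axes) with 95% intervals from limma, for high over low sugar, for cwo mutant over control as labelled, and for the interaction. Filled points passed the adjusted threshold of 0.05. Gpo-1 has the highest diet and genotype differences and the lowest interaction, -0.97, while ImpL3 has a positive interaction, 0.45.

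Per kilobase of exon, which allows levels to be set against each other, the order of the genes differed between groups. In libraries labelled mutant on high sugar Gpo-1 led with 1103 CPM per kb, followed by Gpdh at 691, Mdh1 at 448, Got2 at 344, ImpL3 at 177, Got1 at 171 and Gk1 at 64.0, and ImpL3 and Got1 did not differ beyond their spread. In control libraries on high sugar Gpdh led with 1117 CPM per kb, followed by Gpo-1 at 661, Mdh1 at 443, Got2 at 292, Got1 at 176, ImpL3 at 148 and Gk1 at 57.0, with no overlap between neighbours. In libraries labelled mutant on low sugar Gpo-1 at 404 and Got2 at 394 CPM per kb overlapped, as did Got2 and Mdh1 at 373, apart from and ahead of Gpdh at 268, ImpL3 at 208, Got1 at 181, which overlapped with ImpL3, and Gk1 at 49.2. In control libraries on low sugar Mdh1 led with 361 CPM per kb, Gpdh at 311 and Got2 at 301 overlapped, and ImpL3 at 238, Got1 at 171, Gpo-1 at 123 and Gk1 at 37.8 followed apart from each other. Gpo-1 thus took the sixth place of the 7 genes in control libraries on low sugar. By mean it took the first in both groups labelled mutant, but on low sugar it overlapped there with Got2. Gk1 was lowest in every group.

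The positions and exon lengths are from the Ensembl release 115 annotation of BDGP6, matched by FlyBase identifier. No gene of that annotation overlaps any of the 7 on the same strand. On the opposite strand Gpdh overlaps lncRNA:CR44986, Got2 overlaps CG7289, and Gk1 overlaps mri and NitFhit. The libraries came from a stranded kit, and no strand setting of the counting is known here, so the values of Gpdh, Got2 and Gk1 are uncertain to that extent.

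As a description over the 16 libraries, which fall into the 4 groups and so share their group means, Gpo-1 and Gk1 had a Pearson correlation of 0.98 on the log2 scale, and their deviations from the group means one of 0.09. Gpdh and Gpo-1 correlated at 0.68, and at 0.66 in the deviations. Gpdh and ImpL3 correlated at -0.90, and at 0.07 in the deviations. Among all genes tested, those most like Gpdh were CG5246 (r = 0.995), fu12 (0.994) and CG31792 (0.991). CG12766 (0.990), Ndae1 (0.989) and Pdp1 (0.988) were most like Gpo-1, and PH4alphaEFB (0.985), CG6972 (0.974) and CG6833 (0.963) most like ImpL3. The genes most like Gk1 were CG31673 (0.989), MFS15 (0.987) and CG1213 (0.984), those most like Mdh1 were CG12310 (0.957), CG11876 (0.955) and Adi1 (0.951), and those most like Got2 were Cyt-b5-r (0.970), CG10399 (0.967) and CG9147 (0.963). Got1 had no close match, with Ccs at 0.791 as the nearest.

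Other genes of the same pathways were read from lists chosen for their reactions, also with earlier results of these data known. Their counts can be read beside the shares of all genes given above, as a description only. The lists were searched by exact symbol without synonyms, so an absence may be one of naming. Found were 6 of 17 glycerol 3-phosphate symbols and 5 of 9 malate symbols. Of the lactate, pyruvate and 2-hydroxyglutarate symbols 10 of 17 were found, and of the other NADH enzymes 5 of 6. Of the 6 glycerol 3-phosphate genes found, 3 rose and 1 fell on high sugar in libraries labelled mutant, and 3 rose and 1 fell in control libraries. Between genotypes 2 were higher and 4 lower in libraries labelled mutant on high sugar, and 2 were higher and 2 lower on low sugar. With only the 8 libraries compared in the fit, 2 instead of 3 rose in libraries labelled mutant, and 2 instead of 1 fell in control libraries. On low sugar 1 instead of 2 was then lower in libraries labelled mutant. Several fits with 1 library left out also changed these counts by 1. Gk2, a glycerol kinase like Gk1, averaged 171 ± 10.7 CPM in libraries labelled mutant on high sugar, 233 ± 13.2 CPM in control libraries on high sugar, 74.9 ± 6.74 CPM in libraries labelled mutant on low sugar and 55.0 ± 2.22 CPM in control libraries on low sugar (SD, n = 4 each). It rose on high sugar by 1.19 in libraries labelled mutant and by 2.07 in control libraries on the log2 scale, and the interaction was -0.88 ± 0.09 (adjusted p = 2.75e-05). It was lower in libraries labelled mutant on high sugar (log2 -0.45, adjusted p = 6.44e-05) and higher in them on low sugar (log2 0.44, adjusted p = 7.51e-05), so Gk1 and Gk2 had opposite genotype differences on high sugar.

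CG8298 and CG1271 were placed on that list under the glycerol kinase reaction. CG8298 averaged 22.1 CPM in libraries labelled mutant on high sugar, 16.5 CPM in control libraries on high sugar, 23.0 CPM in libraries labelled mutant on low sugar and 17.0 CPM in control libraries on low sugar. It was higher in libraries labelled mutant by 0.41 and 0.42 on the log2 scale on high and on low sugar (adjusted p = 2.03e-06 and 1.23e-06), and no diet response was called. CG1271 averaged 9.81 CPM in libraries labelled mutant on high sugar, 6.54 CPM in control libraries on high sugar, 19.8 CPM in libraries labelled mutant on low sugar and 19.6 CPM in control libraries on low sugar, and fell on high sugar in libraries labelled mutant (log2 -0.98) and in control libraries (log2 -1.52). Its interaction was 0.54 ± 0.13 (adjusted p = 0.0110), and 0.51 with an adjusted p of 0.0822 without the library of highest Tweedle score in each group.

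Of 5 malate genes, 4 rose and none fell on high sugar in libraries labelled mutant, and all 5 rose in control libraries. On high sugar 3 were lower and none higher in libraries labelled mutant, and on low sugar 3 were higher and 1 lower. Under quantile normalization none was higher and 1 was lower on low sugar, and with only the 8 libraries compared in the fit 2 instead of 4 rose in libraries labelled mutant. Mdh2, the mitochondrial malate dehydrogenase, averaged 888 CPM in libraries labelled mutant on high sugar, 866 CPM in control libraries on high sugar, 817 CPM in libraries labelled mutant on low sugar and 732 CPM in control libraries on low sugar. It rose by 0.12 in libraries labelled mutant and by 0.24 in control libraries on the log2 scale (adjusted p = 0.0120 and 3.32e-05), and by 0.04 in each under quantile normalization (adjusted p = 0.351 and 0.283). It was also higher in libraries labelled mutant on low sugar (log2 0.16, adjusted p = 0.00298, and 0.07 with an adjusted p of 0.148 under quantile normalization). Men, the malic enzyme that turns malate into pyruvate and makes NADPH, averaged 1987 CPM in libraries labelled mutant on high sugar, 2381 CPM in control libraries on high sugar, 707 CPM in libraries labelled mutant on low sugar and 649.9 CPM in control libraries on low sugar. Its rise was 1.49 in libraries labelled mutant and 1.87 in control libraries on the log2 scale, with an interaction of -0.38 ± 0.07 (adjusted p = 0.00323).

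Of 10 genes of lactate, pyruvate and 2-hydroxyglutarate metabolism, 7 rose and 1 fell on high sugar in libraries labelled mutant, and 9 rose and 1 fell in control libraries, so that ImpL3 stood against the direction of most of this list. In the interaction none was higher and 4 were lower. CG9396 averaged 25.8 CPM in libraries labelled mutant on high sugar, 60.1 CPM in control libraries on high sugar, 25.2 CPM in libraries labelled mutant on low sugar and 31.1 CPM in control libraries on low sugar. It rose on high sugar in control libraries (log2 0.94, adjusted p = 7.52e-09) and differed by 0.03 in libraries labelled mutant (adjusted p = 0.723), with an interaction of -0.91 ± 0.09 (adjusted p = 1.98e-05). CG9399, listed by RefSeq with the synonym dMPC2 of the mitochondrial pyruvate carrier, rose by 0.51 in libraries labelled mutant and by 0.88 in control libraries on the log2 scale, with an interaction of -0.37 ± 0.07 (adjusted p = 0.00213).

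Of 5 other cytosolic NADH enzymes, 2 rose and 3 fell on high sugar in libraries labelled mutant, and likewise in control libraries. On high sugar none was higher and 4 were lower in libraries labelled mutant, and on low sugar 1 was higher and 2 lower, of which none was lower without control library 1 on low sugar. Sodh-2, a sorbitol dehydrogenase that reduces NAD+, averaged 44.6 CPM in libraries labelled mutant on high sugar, 55.4 CPM in control libraries on high sugar, 110.2 CPM in libraries labelled mutant on low sugar and 86.5 CPM in control libraries on low sugar. It fell on high sugar in libraries labelled mutant (log2 -1.29) and in control libraries (log2 -0.64), with a difference between them (interaction -0.65 ± 0.10, adjusted p = 9.68e-04). The fall was thus larger in libraries labelled mutant, unlike that of ImpL3.

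**Figure D5:**
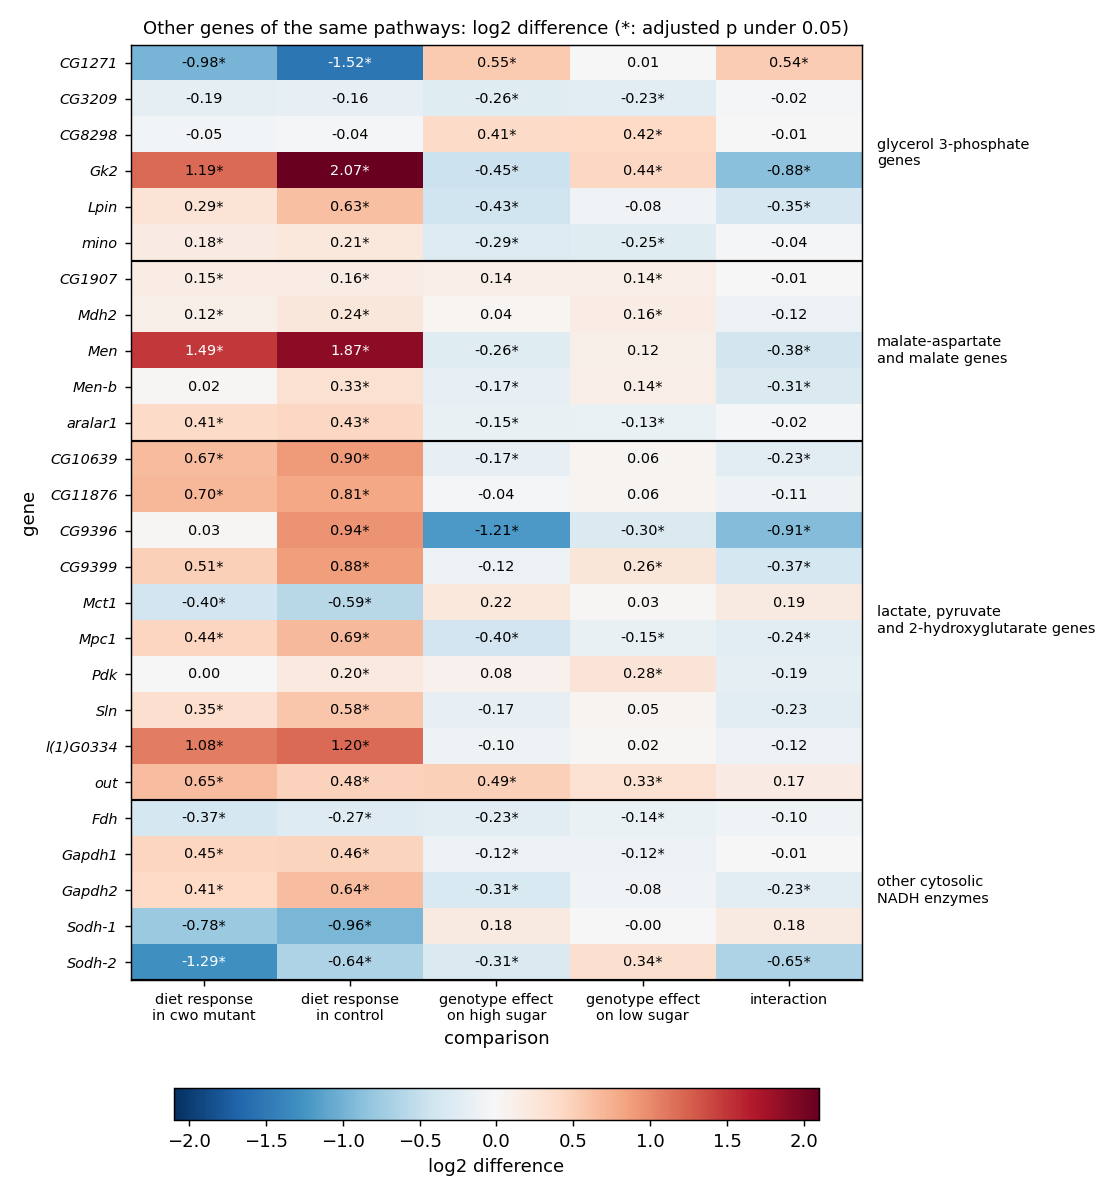
Log2 differences of 26 other genes of the same pathways (vertical axis, by list) in the 5 comparisons (horizontal axis), with colour from blue for lower to red for higher. An asterisk marks an adjusted p under 0.05. Men and Gk2 have red diet responses in both genotypes, and the interactions of Gk2, CG9396 and Sodh-2 are -0.88, -0.91 and -0.65.

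Libraries differed in the summed level of 15 Tweedle genes, which code for cuticle proteins and mark the approach of a moult. The sums ran from 1055 to 2319 CPM in libraries labelled mutant on high sugar, 880.4 to 2384 CPM in control libraries on high sugar, 1129 to 2587 CPM in libraries labelled mutant on low sugar and 1219 to 1587 CPM in control libraries on low sugar. Without the library of highest Tweedle score in each group, the calls of the 7 genes stayed as given in each comparison except the interaction, where Gk1 was lost (-0.17, adjusted p = 0.181) and Gpdh, Gpo-1 and ImpL3 kept theirs. Of the related lists, the glycerol 3-phosphate genes then had 2 higher and 1 lower for diet in each genotype, 2 higher and 3 lower for genotype on high sugar, 2 higher and 1 lower on low sugar, and none higher and 1 lower in the interaction. The malate genes had 1 higher and 3 lower for genotype on high sugar. The lactate and pyruvate genes had 1 higher and 2 lower for genotype on high sugar and none higher and 3 lower in the interaction. The other NADH enzymes had none higher and 3 lower for genotype on high sugar, 1 higher and 1 lower on low sugar, and none higher and 1 lower in the interaction. The other counts given above for these lists were the same. The authors' deposited table holds log2 coefficients for the diet and genotype comparisons, and its adjusted p-values put all 28 values of the 7 genes on the same side of 0.05 as given here. Those coefficients come from the same libraries and differ from the values here by at most 0.0033, so the shared calls are not further evidence.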

How the data were processed

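One table of 9863 genes and 16 libraries was used. Per the submitters' processing notes the tools were Trimmomatic, TopHat2 2.1.0, HTSeq and limma, with no role or order stated. For the counting, genome build and annotation: not given in the sources used here. Per the labels' protocols, rRNA-depleted RNA was made into stranded libraries and sequenced (75 bp, single-end) in 2 technical runs of each sample, with 30 M reads as the stated depth. The deposited values are called CPM by the table's name, but in 9 of 16 libraries their sum is above what CPM allows. The deposited values were therefore handled as a signal that the authors had scaled in a way unknown here. The same table holds the authors' log2 coefficients, their moderated t and F statistics (scores) and their p-values; their model is unknown here. In each library the values were whole multiples of 1 step, which gave the read depth. The planned count test on reads recovered this way was not run, because too few low values were there for the unit to be accepted. The read depths, read counts, counting error and chi-square given here still assume that 1 step is 1 read. Replicates differed by far more than counting noise, with a chi-square per degree of freedom of 13.9 to 127 over 24 pairs.

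From these values, log2(CPM + 0.5) was fitted with limma 3.58.1 in R 4.3.3 over all 16 libraries, for the 9837 genes that reached 1 CPM in 4 or more libraries, with 1 mean per group and eBayes with trend. The residual degrees of freedom were 12 and the prior ones 2.97. All tests were two-sided, with Benjamini-Hochberg adjustment over all genes within each of 5 comparisons. Intervals of log2 differences are 95% intervals from that fit. The 5 within-library ratios were compared by exact permutation over libraries, adjusted over 20 tests, including those whose outcome follows from the single genes. Exon lengths came from the annotation's merged exons of each gene. Python 3.11.15 with numpy 2.4.6, pandas 2.3.3, scipy 1.17.1 and matplotlib 3.10.9 made the tables and figures, and the fit was tested on simulated data. All members were named, and of the related lists those that share a reaction with a member plus the 4 others of largest absolute difference among the genes called in the interaction. The Tweedle score is the mean log2 value of the 15 Tweedle genes in a library. The members and lists were chosen with earlier results of these data known. Whether the replicate numbers pair the libraries could not be settled from the values, and the main fit has no block.

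Alternatives were median-ratio scaling, quantile normalization, pseudocounts of 0.1 and 1, no filter or a minimum of 5 CPM, robust eBayes, only the groups compared, a replicate block and each library left out. Chosen after seeing the data were the Tweedle score as a covariate and leaving out the library of highest score in each group.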

Additional observations from a re-analysis of the deposited data

Results flagged for a closer look

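The diet response differed between genotypes by a test of the difference itself (limma, adjusted p under 0.05) for 4 of the 7 enzymes and for 11 of the 26 related genes, against 16.9% of all genes. Of the related genes, the 6 named here were in part chosen for that difference. The enzymes and the lists were chosen with earlier results of these data known, so the contrast with all genes is not independent evidence. The call of Gk1 was lost in 16 of 26 alternatives. The interaction, the response in libraries labelled mutant minus that in control libraries on the log2 scale, was -0.97 for Gpo-1, -0.47 for Gpdh, 0.45 for ImpL3 and -0.21 for Gk1. Among the related genes it was -0.91 for CG9396, -0.88 for Gk2, -0.65 for Sodh-2, -0.38 for Men, -0.37 for CG9399 and 0.54 for CG1271.

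In 4 of 60 groups of 4 libraries 1 library stood far from the other 3 by Dixon's test, where chance alone gives about 1 in 20. Gk1 was low in control library 4 on low sugar, at 69.4 CPM. Gk2 was low in the library labelled mutant 4 on low sugar, at 64.8 CPM, which has the highest Tweedle score of its group. CG1271 was high in the library labelled mutant 4 on high sugar, at 11.1 CPM. Men was high in the library labelled mutant 2 on low sugar, at 777 CPM.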

How the results depend on the processing

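Over 938 alternative values for the 7 enzymes in the 5 comparisons, 911 kept their direction and their side of the threshold. The call of the Gk1 interaction was lost in 16 of 26, with log2 values between -0.25 and -0.17. Calls were gained under quantile normalization for Got2 in the diet response in control (-0.17) and for Got1 in the diet response in libraries labelled mutant (-0.15), and without library 4 labelled mutant on high sugar for the Got2 interaction (-0.18, adjusted p = 0.0481). Directions turned only for values that were not called. Under quantile normalization these were Got1 for diet in control (-0.071) and genotype on low sugar (-0.027), Mdh1 for genotype on high sugar (-0.021), on low sugar (-0.037) and the interaction (0.015), and CG1271 for genotype on low sugar (-0.036). With 1 library left out, Mdh1 ranged from -0.028 to 0.051 for genotype on high sugar and from -0.075 to 0.0032 for the interaction. Of 1072 alternative values for the related genes named above, 1058 kept direction and side. Among the others, CG1271 ranged from -0.072 to 0.068 for genotype on low sugar, CG8298 from -0.040 to 0.010 for the interaction, and CG9396 from -0.018 to 0.088 for diet in libraries labelled mutant.

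With 1 library left out, the number of genes higher in the interaction, 779, ranged from 529 to 1201 (the highest without library 1 labelled mutant on low sugar) and the number lower, 880, from 654 to 1246. Without the 4 libraries of highest Tweedle score they were 277 and 493. Of the ratios, ImpL3 over Gpdh for genotype on low sugar turned to -0.058 under quantile normalization, and Got1 over Got2 for diet in libraries labelled mutant passed there (0.16). A ratio with 1 library left out was given as a value without a test. With the replicate number as a block, the interaction had 914 genes higher and 1035 lower, and no call of the 7 enzymes changed. Same-numbered libraries of different groups deviated together in 13 of 24 pairs of libraries (correlation above 0.1, median 0.13, range -0.34 to 0.44). Differently numbered libraries of different groups ranged more widely, from -0.57 to 0.50, and many of those correlations were above 0.1 too. Pairing by number was thus neither shown nor excluded. The counting error of these genes is at most 1.70% in any library, if 1 step in its values is 1 read.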
